A study of Mus musculus with 12 samples.

Results

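The genes described here encode 35 proteins of the lysosome, of 19937 mouse genes tested. They were chosen by name: 11 proteases, 8 glycosidases, 7 proteins that act on or carry lipids, 6 membrane proteins and 3 subunits of the proton pump. All 35 were measured, each by 1 probe set annotated to that gene alone. No filter on the values was applied, but the genes were chosen with earlier results of these data known. Dendritic cells were cultured from mouse bone marrow in GM-CSF at 200 ng/ml for 7 days and selected with beads against CD11c, with a purity above 95% by the labels. The 4 groups of 3 arrays each were IL-2 knockout cells given curdlan for 6 h, untreated IL-2 knockout cells, wild-type cells given curdlan for 6 h and untreated wild-type cells. Curdlan is a beta-glucan particle that binds the receptor Dectin-1, and the study's stated aim was the role of IL-2 signals in dendritic cell physiology. The strain is given as B6.129P2-Il2tm1Hor/J for wild-type and knockout samples alike, and the groups here follow the genotype field and the sample titles. No label ties a replicate to its own animal, and the p-values therefore cover the spread between these samples, which may be technical. Values are log2 expression levels per probe set from the RMA method, and a difference of 1 on this scale is a doubling.

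Lysosomes are acidic compartments in which soluble hydrolases break down proteins, glycans and lipids delivered by endocytosis, phagocytosis and autophagy. A vacuolar ATPase pumps protons in, glycoproteins such as LAMP1 and LAMP2 line the membrane, and transporters and channels export the products. In dendritic cells these proteases also cut antigens and the invariant chain of MHC class II, and the compartment's acidity and proteolysis are known to be controlled during maturation. In human cells the transcription factor TFEB is known to bind a short promoter motif, the CLEAR element, in many lysosomal genes.

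The labelled cells and genotypes were checked on the same arrays. All 11 dendritic cell markers measured were above the mean lower quartile of the arrays (5.12), the level taken here as near background. With curdlan they summed to 43338 to 47199 on the linear scale in knockout cells, below the 47362 to 49169 in wild-type cells, while untreated the ranges overlapped at 40687 to 46108 in knockout cells and 44400 to 48483 in wild-type cells. Among the markers of highest level, which make up most of the sum, Ccr7 differed by -0.35 between the curdlan-treated genotypes (limma, adjusted p 0.572). Itgax, Cd74, H2-Ab1 and H2-Aa differed by between -0.03 and 0.05 there. Averaged over treatments, Cd209a, Dpp4 and Zbtb46 of these 11 were lower in the knockout, by limma differences of -1.94, -1.33 and -0.26 (adjusted p 0.000579, 0.00132 and 0.0371). With curdlan Cd209a was lower, at -1.84 in knockout cells and -2.87 in wild-type cells, while Ccr7 rose by 1.09 and 0.99 and Zbtb46 by 0.53 and 0.44, and Flt3 rose by 0.92 in knockout cells.

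Of 12 macrophage and monocyte markers 1, Cd5l, was near background. They summed to 27350 to 31189 in curdlan-treated knockout cells against 27396 to 32958 in untreated knockout cells, and to 25081 to 28486 in curdlan-treated wild-type cells against 26828 to 30163 in untreated wild-type cells. These sums overlapped between treatments and between genotypes, but single markers changed with curdlan. Vcam1 rose by 1.40 in knockout and 0.80 in wild-type cells, Fcgr1 by 0.64 and 0.77 and Mertk by 0.32 and 0.38, while Ccr2 was lower, at -0.84 and -0.56, and 0 of the 12 passed between genotypes in any of the 3 genotype contrasts. Of 12 neutrophil markers 1, Ly6g, was near background. Their sum, which is mostly Mmp8, was 8360 to 9208 in curdlan-treated against 9594 to 9887 in untreated knockout cells, and 8351 to 8599 against 8973 to 9542 in wild-type cells. The median log2 difference of the 12 with curdlan was 0.12 in knockout and 0.08 in wild-type cells, where Mmp8 fell by 0.16 and Prtn3 rose by 0.30 in knockout cells and Cxcr2 fell by 0.87 in wild-type cells. For T, NK and B cells, 6 of 10 measured markers lay near background in every group, among them Cd3g, Cd3d, Cd79a and Ms4a1. The part of these markers in the results on lysosomal genes was not tested.

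The disrupted gene Il2 lay at 5.63 to 5.87 in curdlan-treated knockout cells, against 6.74 to 7.80 in curdlan-treated wild-type cells, a difference of -1.48 (limma, adjusted p 0.0114). Untreated knockout cells gave 5.77 to 6.04, above the 5.37 to 5.56 of untreated wild-type cells, by 0.41 (adjusted p 0.524). Il2 thus followed the genotype labels with curdlan and did not separate the untreated groups in that direction. On the second principal component of all genes, both wild-type arrays of replicate 1 lay apart from their groups towards the knockout arrays, at -3.12 with curdlan and 0.76 untreated, where the other wild-type arrays lay at -17.8 to -12.7 and the knockout arrays at 8.04 to 15.3.

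The promoters of the 35 genes were searched for that motif, and the sequences below are shown because they hold its longer form. RefSeq (GRCm38.p6) gave a window of 300 bases that spans the start of 30 of the 35. The E-box core CACGTG was in 12 of the 30 windows (40.0%), against 8.09% of the 27025 mouse genes with a window. Its longer form TCACGTGA was in 7 (23.3%), against 1.12% of those genes. Both motifs read the same on either strand, and every match of the longer one is also a match of the core. In the 40-base stretches that follow, written 5′ to 3′ on the gene's strand, the capitals mark TCACGTGA. They come from chr8:105566045-105566084 (minus strand, Atp6v0d1), chr16:44139368-44139407 (minus, Atp6v1a), chr7:126583335-126583374 (minus, Cln3), chr2:164833744-164833783 (plus, Ctsa), chr7:142387903-142387942 (minus, Ctsd), chrX:134601210-134601249 (minus, Gla) and chr8:3500457-3500496 (plus, Mcoln1).
Atp6v0d1: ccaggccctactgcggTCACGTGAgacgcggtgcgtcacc
Atp6v1a: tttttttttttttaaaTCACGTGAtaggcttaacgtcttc
Cln3: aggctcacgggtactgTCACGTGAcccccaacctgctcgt
Ctsa: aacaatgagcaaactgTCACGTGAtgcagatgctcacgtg
Ctsd: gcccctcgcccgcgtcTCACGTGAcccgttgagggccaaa
Gla: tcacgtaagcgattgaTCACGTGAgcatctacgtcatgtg
Mcoln1: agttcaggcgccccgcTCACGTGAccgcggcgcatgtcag

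The motif began 4 bases before the start in Atp6v0d1, 13 in Ctsa, 46 in Mcoln1, 99 in Ctsd, 122 in Cln3, 132 in Atp6v1a and 228 in Gla. For comparison, the 100 bases before the start are shown for the genes with the largest fall and the largest rise among the 35 with curdlan, Manba (chr3:135485511-135485610, plus) and Npc2 (chr12:84773113-84773212, minus). Neither window held either motif.
Manba: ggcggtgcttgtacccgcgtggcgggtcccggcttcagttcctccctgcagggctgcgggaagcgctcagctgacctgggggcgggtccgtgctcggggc
Npc2: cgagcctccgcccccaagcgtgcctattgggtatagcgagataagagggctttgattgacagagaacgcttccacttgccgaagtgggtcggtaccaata

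All 35 genes were expressed well above the lower quartile, with means over the 12 arrays between 9.77 and 13.63. Of all genes tested, 27.5% had a mean above 9, the level that all 35 passed. Of the 35, 19 had a mean above 12 and 6 above 13, where the highest value on any array was 14.04. The spread between arrays of a group was small, with a median residual SD of 0.0593 over the 35 genes against 0.0997 over all genes. Spread, interval widths, signs and medians of differences were compared with all genes, here and below, and not with genes of like level. Compression of differences near saturation was not tested. Ctsk had the widest spread of the 35 (residual SD 0.306) and Atp6v0d1 the narrowest (0.019). In these bulk samples fewer cells of a type and less RNA per cell cannot be told apart.

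Curdlan changed a minority of the lysosomal genes, among them the glycosidase genes Manba, Man2b1 and Gusb, which fell, and the cholesterol carrier gene Npc2, which rose. In IL-2 knockout cells 6 of the 35 fell and 1 rose at an adjusted p under 0.05 by limma, which is 20% of them against 22.5% of all genes tested. In wild-type cells 4 fell and 1 rose, 14.3% of the 35 against 19.6% of all genes. Falls alone numbered 6 of 35 in knockout cells, beside 13.2% of all genes, and 4 of 35 in wild-type cells, beside 12.3% of all genes. Rises numbered 1 in each, beside 9.29% and 7.27% of all genes. The shares were thus near or below those over all genes. Of the 35, 4 fell in both genotypes (Manba, Man2b1, Gusb and Ppt1) and 1 rose in both (Npc2). The count of 6 in knockout cells dropped to 2 without curdlan-treated array 1 or untreated array 1, to 3 without untreated array 3, and to 1 without curdlan-treated array 2, culture 1 or culture 2, all of knockout cells. A culture here is a pair of arrays, with and without curdlan, that share a genotype and a replicate number.

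Most of the remaining differences were small and below 0. Of the 35 genes 27 had a negative difference in knockout cells and 27 in wild-type cells, where 42.6% and 44.5% of all genes were negative. The median difference of the 35 was -0.08 in knockout cells and -0.05 in wild-type cells, beside 0.04 and 0.02 over all genes. Whether other genes of like level shifted in the same way was not tested. Treated and untreated arrays did not overlap for 14 genes in knockout cells (40%, against 40.3% of all genes) and for 17 in wild-type cells (48.6%, against 38%). The 95% confidence interval of the difference lay within 1.25-fold in either direction for 26 of the 35 in knockout cells and for 27 in wild-type cells, against 49.9% and 55.4% of all genes. Most of all genes have lower levels than the 35, so these shares do not show that the 35 were unusually stable.

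**Figure D1:**
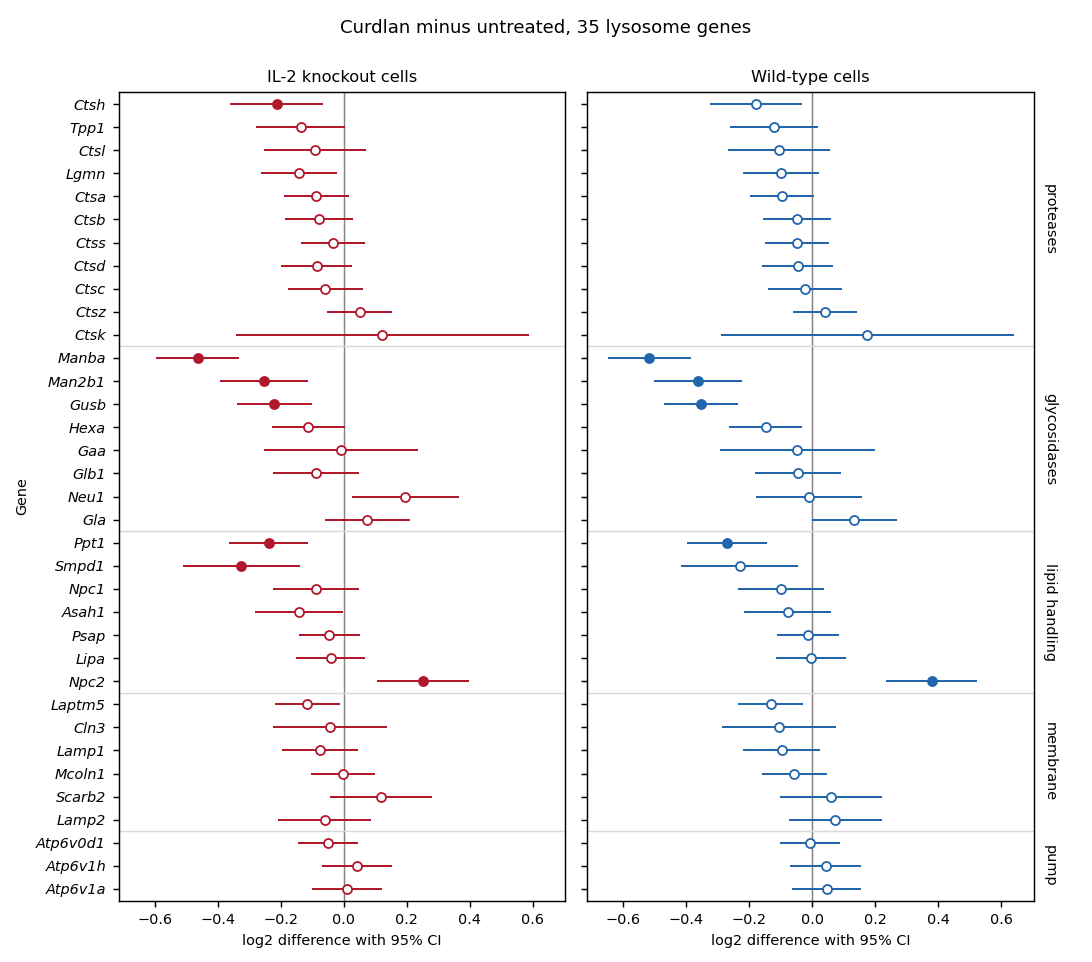
Log2 difference between curdlan-treated and untreated cells (x axis) for the 35 lysosomal genes (rows, grouped by role), with IL-2 knockout cells in the left panel and wild-type cells in the right. Points are fitted differences, bars are 95% confidence intervals and filled points passed an adjusted p of 0.05. Manba lies farthest to the left in both panels (-0.46 and -0.52) and Npc2 is the filled point on the right of 0 in both (0.25 and 0.38).

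Among the 8 glycosidases, which cut sugars from glycoproteins and glycolipids, 3 fell in knockout cells and 3 in wild-type cells, and they were the same genes, Manba, Man2b1 and Gusb. That is 37.5% of the 8 in each genotype, beside falls of 13.2% and 12.3% of all genes. Manba encodes beta-mannosidase, which removes the last mannose of degraded N-glycans. Its levels were 9.59, 9.48 and 9.68 in curdlan-treated knockout cells, against 10.09, 9.99 and 10.05 in untreated knockout cells. In wild-type cells they were 9.44, 9.40 and 9.54 with curdlan, against 9.98, 9.97 and 9.98 without. Every treated array was thus below every untreated array. The difference was -0.46 ± 0.06 (SE, limma, adjusted p 0.000544) in knockout cells and -0.52 ± 0.06 (adjusted p 0.00021) in wild-type cells, which is 27.5% and 30.1% less signal. Both calls held in all 26 alternative settings.

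Man2b1, the lysosomal alpha-mannosidase, had levels of 11.85, 11.77 and 12.002 in curdlan-treated knockout cells, against 12.13, 12.08 and 12.17 without curdlan. In wild-type cells it had 11.81, 11.83 and 11.90 with curdlan, against 12.15, 12.25 and 12.23 without. Treated and untreated arrays were separate in both genotypes. It fell by 0.36 ± 0.06 on the log2 scale in wild-type cells (limma, adjusted p 0.00259), a call that held in all 26 settings, and by 0.25 ± 0.06 in knockout cells (adjusted p 0.0168). The knockout call was lost with a fit of the 6 knockout arrays alone (0.0587), without curdlan-treated arrays 1 (0.0555) or 2 (0.0745), without untreated arrays 1 (0.0549) or 3 (0.062), and without knockout cultures 1 (0.133) or 2 (0.0698). Gusb encodes beta-glucuronidase, which acts on glycosaminoglycans. It gave 11.28, 11.21 and 11.32 in curdlan-treated knockout cells, against 11.51, 11.46 and 11.50 without curdlan. Wild-type cells gave 11.15, 11.02 and 11.08 with curdlan, against 11.49, 11.42 and 11.40 without. Again no treated array reached an untreated one. Gusb fell by 0.35 ± 0.05 in wild-type cells (limma, adjusted p 0.00117, held in all 26 settings) and by 0.22 ± 0.05 in knockout cells (adjusted p 0.0148). That knockout call was lost without curdlan-treated array 2 (0.0668), untreated array 1 (0.057), culture 1 (0.117) or culture 2 (0.072).

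The other 5 glycosidases did not pass in either genotype. Hexa, a subunit of the hexosaminidase that degrades gangliosides, differed by -0.11 in knockout cells and -0.15 in wild-type cells (limma, adjusted p 0.139 and 0.0748). Glb1 (beta-galactosidase) and Gaa (acid alpha-glucosidase, which degrades glycogen) differed by between -0.09 and -0.01. Gla, alpha-galactosidase A, differed by 0.08 in knockout cells and by 0.13 in wild-type cells. Neu1, a sialidase, was 10.11, 10.01 and 10.25 in curdlan-treated knockout cells, against 9.95, 9.85 and 9.98 without curdlan, so the arrays did not overlap. The difference of 0.20 ± 0.08 (SE) missed the threshold (adjusted p 0.0866) and passed with the culture as a block (adjusted p 0.021), while the difference in wild-type cells was -0.01.

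The proteins that act on or carry lipids included genes that fell and the gene that rose. Of the 7 genes, 2 fell and 1 rose in knockout cells, and 1 fell and 1 rose in wild-type cells. The calls were 42.9% and 28.6% of the 7, beside 22.5% and 19.6% of all genes. Npc2 encodes a small soluble protein that binds cholesterol in the lumen and passes it to the membrane protein encoded by Npc1. Its levels were 12.03, 12.20 and 11.998 in curdlan-treated knockout cells, against 11.79, 11.91 and 11.77 in untreated knockout cells. Wild-type cells gave 11.87, 11.84 and 11.87 with curdlan, against 11.53, 11.40 and 11.52 without. All treated arrays lay above the untreated arrays of their genotype, and the treated wild-type arrays lay in the range of the untreated knockout arrays. Npc2 rose 1.30-fold in wild-type cells (0.38 ± 0.07, SE, limma, adjusted p 0.00259, held in all 26 settings) and 1.19-fold in knockout cells (0.25 ± 0.07, adjusted p 0.0205). The rise in knockout cells lost its call with only the arrays compared (0.0652), without curdlan-treated array 2 (0.0858), untreated arrays 1 (0.0763) or 3 (0.0739), and cultures 1 (0.116) or 3 (0.0505). Npc1 itself differed by -0.09 in knockout cells and -0.10 in wild-type cells and passed in neither (adjusted p 0.314 and 0.301).

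Ppt1 encodes palmitoyl-protein thioesterase, which strips fatty acids from proteins that are being degraded. It had 10.85, 10.93 and 11.06 in curdlan-treated knockout cells, against 11.17, 11.18 and 11.21 without curdlan. In wild-type cells it had 10.83, 10.82 and 10.83 with curdlan, against 11.15, 11.07 and 11.07 without. The groups did not overlap in either genotype. Ppt1 fell by 0.24 ± 0.06 in knockout cells (limma, adjusted p 0.014) and by 0.27 ± 0.06 in wild-type cells (adjusted p 0.00718). The wild-type call was lost without wild-type culture 1 (0.0656) or 2 (0.0543). The knockout call was lost with only the arrays compared (0.0572), without curdlan-treated arrays 1 (0.0565) or 2 (0.0556), and without cultures 1 (0.117) or 2 (0.0744).

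Smpd1 encodes acid sphingomyelinase, which releases ceramide from sphingomyelin. Its levels were 9.83, 9.86 and 9.91 in curdlan-treated knockout cells, against 10.21, 10.16 and 10.21 without curdlan. Wild-type cells gave 9.81, 9.86 and 9.67 with curdlan, against 10.22, 9.88 and 9.92 without. Untreated wild-type array 1 was as high as the untreated knockout arrays, while untreated wild-type arrays 2 and 3 lay just above the treated ones. Smpd1 fell by 0.32 ± 0.08 in knockout cells (limma, adjusted p 0.0198). In wild-type cells the difference of -0.23 ± 0.08 missed the threshold (adjusted p 0.0828). The knockout call was lost without curdlan-treated arrays 1 (0.0656) or 2 (0.0638), without untreated arrays 1 (0.0644) or 3 (0.0608), and without any 1 of the knockout cultures (0.157, 0.0743 and 0.0679). Asah1, the acid ceramidase that acts on the product of Smpd1, differed by -0.14 and -0.08 and did not pass. Lipa (acid lipase) and Psap (prosaposin, the source of the saposins that help glycolipid enzymes) differed by between -0.05 and 0.00 in the 2 genotypes.

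Of the 11 proteases 1 passed with curdlan, in knockout cells (9.09% of them, beside 22.5% of all genes). Ctsh, a cathepsin with aminopeptidase activity, was 11.50, 11.55 and 11.73 in curdlan-treated knockout cells, against 11.79, 11.77 and 11.86 in untreated ones. It was 11.60, 11.55 and 11.56 in curdlan-treated wild-type cells, against 11.83, 11.68 and 11.73 in untreated ones, with no overlap in either genotype. The difference was -0.21 ± 0.07 (SE, limma, adjusted p 0.0417) in knockout cells and -0.18 ± 0.07 in wild-type cells (adjusted p 0.0878, or 0.0413 with the culture as a block). The knockout call held in 13 of 26 settings. It was lost with only the arrays compared (0.0976), without curdlan-treated knockout arrays 1 (0.146) or 2 (0.135) or any untreated knockout array (0.0942, 0.0504 and 0.134), without curdlan-treated wild-type arrays 2 (0.0569) or 3 (0.0541) or untreated wild-type array 3 (0.0587), and without knockout cultures 1 (0.238) or 2 (0.132) or wild-type cultures 2 (0.0698) or 3 (0.0766).

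The remaining 10 proteases differed by between -0.14 and 0.17 and passed in neither genotype. Ctss, the cathepsin that trims the invariant chain in antigen-presenting cells, differed by -0.03 ± 0.05 in knockout cells and by -0.05 ± 0.05 in wild-type cells (SE). Its intervals ran from -0.13 to 0.07 and from -0.15 to 0.05. Lgmn, an endopeptidase that cuts after asparagine and acts on antigens and on other cathepsins, differed by -0.14 and -0.10 (limma, adjusted p 0.0809 and 0.239). Ctsb, Ctsc, Ctsd, Ctsl and Ctsz, which cover cysteine and aspartic proteases, differed by between -0.11 and 0.05. The carboxypeptidase Ctsa, which also protects the Neu1 and Glb1 enzymes, and the tripeptidyl peptidase Tpp1 differed by between -0.14 and -0.09. None of the 6 membrane proteins and none of the 3 pump subunits passed in either genotype. At an unadjusted p under 0.05 there was 1 membrane protein gene in each genotype and 0 pump subunits. Of all 19937 genes, 7604 in knockout cells and 6290 in wild-type cells were under that level. Laptm5, a membrane protein of blood cells, differed by -0.12 in knockout cells and -0.13 in wild-type cells (limma, adjusted p 0.095 and 0.074), and its arrays did not overlap.

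Lamp2, an abundant membrane glycoprotein needed for fusion with autophagosomes, had the largest change among the membrane proteins, in the difference between the curdlan responses of the genotypes. It was 12.49, 12.58 and 12.72 in curdlan-treated knockout cells, against 12.61, 12.65 and 12.72 without curdlan. It was 12.60, 12.69 and 12.75 in curdlan-treated wild-type cells, against 12.58, 12.57 and 12.67 without. All groups overlapped, and neither -0.06 in knockout cells nor 0.07 in wild-type cells passed (adjusted p 0.523 and 0.495). The pump subunits Atp6v1h, Atp6v1a and Atp6v0d1 differed by between -0.05 and 0.05 with curdlan. Each of the intervals of these 9 genes lay within 1.25-fold in both genotypes.

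The promoter motif was set beside the curdlan differences. The 7 genes with TCACGTGA differed by between -0.09 and 0.08 in knockout cells and between -0.11 and 0.13 in wild-type cells, and 0 of them passed, beside 20% and 14.3% of the 35. Of the 7 genes that passed in a curdlan contrast 6 had a promoter window, and 0 of those held the core or the longer form, beside 40.0% of the 30 windows. Whether genes with and without the motif differed was not tested. A match or its absence describes these letters in this window only.

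**Figure D2:**
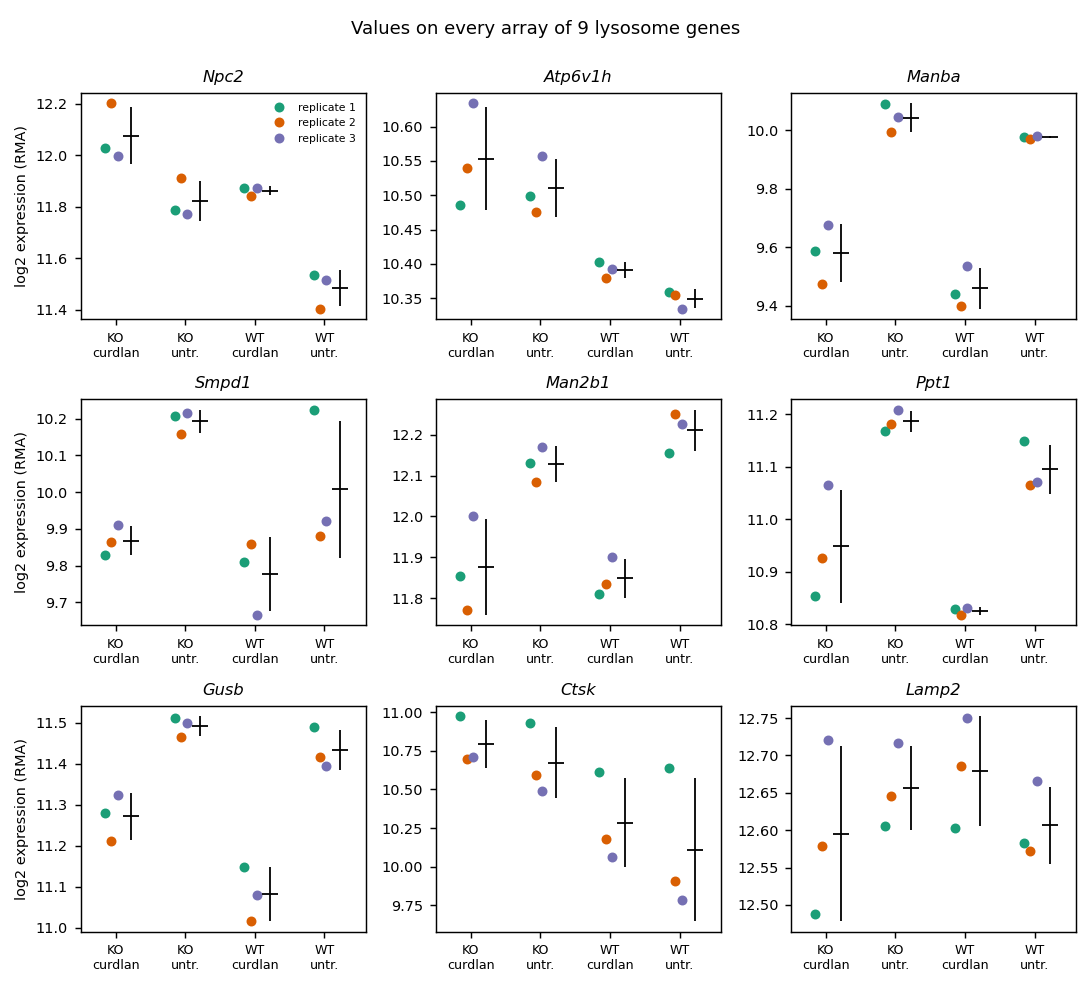
Log2 expression on each of the 12 arrays for 9 lysosomal genes, 1 per panel, in 4 groups of 3 (KO, IL-2 knockout; WT, wild type; untr., untreated). Colours mark the replicate number, and the horizontal mark and bar beside each group are the mean and SD of its 3 arrays. The y axes differ between panels and do not start at 0. Manba, Man2b1, Ppt1 and Gusb are lower with curdlan in both genotypes, Npc2 is higher with curdlan and in the knockout, and replicate 1 is the highest array of every group for Ctsk.

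Between the genotypes the lysosomal genes differed little, and most differences were slightly above 0. With curdlan 0 of the 35 passed by limma, beside 0.622% of all genes (0.105% higher and 0.517% lower), while 5 had an unadjusted p under 0.05. Of all 19937 genes, 2306 had such a p-value. In untreated cells 1 passed, Npc2, higher in the knockout, which is 2.86% of the 35 beside 1.42% of all genes (0.231% higher and 1.19% lower). Averaged over both treatments, 2 passed, Npc2 and Atp6v1h, both higher in the knockout (5.71%, beside 5.04% of all genes, of which 1.48% higher and 3.56% lower), and the 6 knockout arrays did not overlap the 6 wild-type arrays for 4 of the 35, beside 1.27% of all genes. The averaged fit counts the 2 arrays of a culture as independent. Such arrays deviated together, so the averaged p-values may be too small. The knockout was above the wild type in 29 of the 35 with curdlan and in 30 of the 35 untreated, where 58.0% and 52.6% of all genes were. The median difference was 0.06 in each, beside 0.02 and 0.01 over all genes. These signs and medians, too, were not compared with genes of like level. Knockout and wild-type arrays did not overlap for 12 genes with curdlan (14.6% of all genes) and for 11 untreated (15.4%), and in each of these the knockout was higher. Confidence intervals lay within 1.25-fold for 32 of the 35 with curdlan and 31 untreated, against 72.5% and 75.2% of all genes. The single untreated call was lost, leaving 0, without any 1 of the untreated knockout arrays, untreated wild-type arrays 2 or 3, curdlan-treated knockout array 1, curdlan-treated wild-type array 3, or any culture except wild-type culture 1. It became 2 without untreated wild-type array 1 and 3 without wild-type culture 1. With curdlan, 1 gene passed without wild-type culture 1. The averaged count of 2 became 5 without untreated wild-type array 1, 7 without wild-type culture 1 and 0 without wild-type culture 2, and the other libraries that changed it are named with Atp6v1h below. Wild-type culture 1 consists of the 2 arrays that lay apart on the second principal component.

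**Figure D3:**
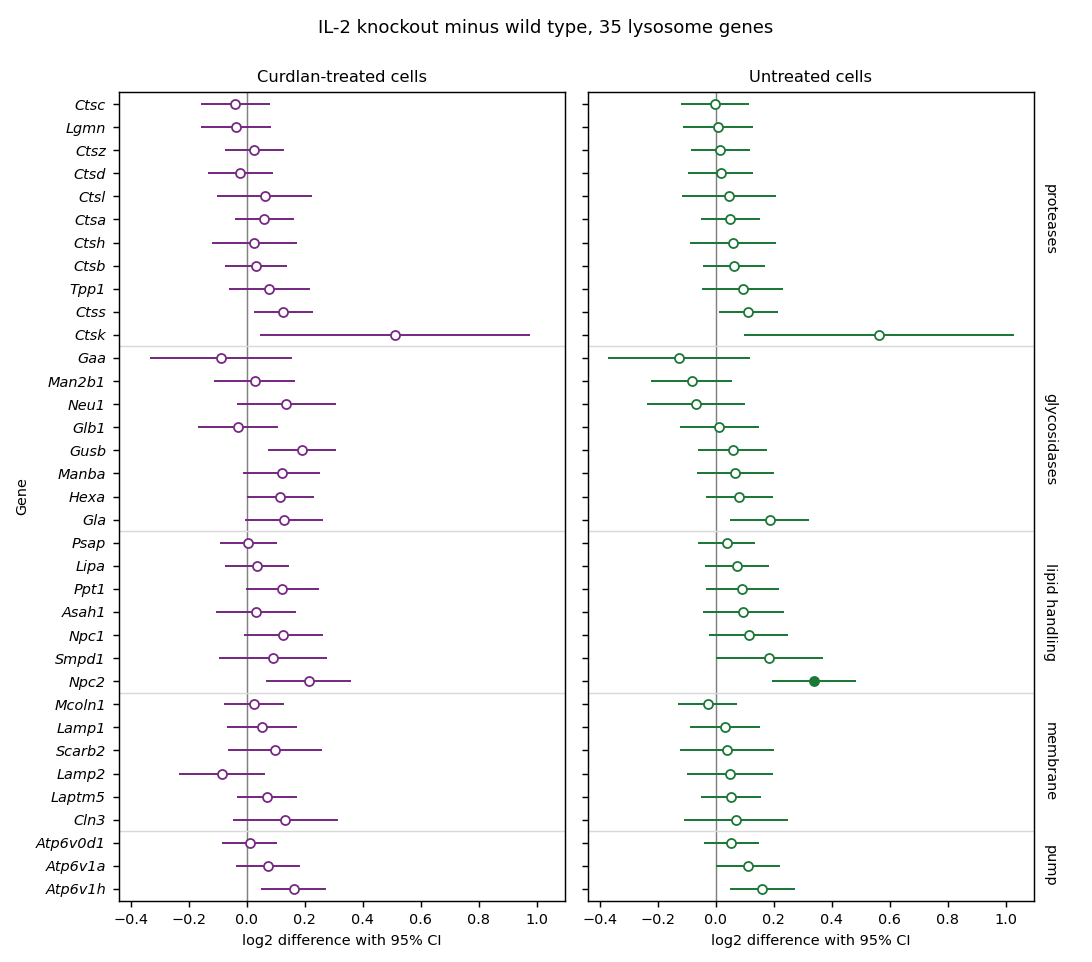
Log2 difference between IL-2 knockout and wild-type cells (x axis) for the 35 lysosomal genes (rows, grouped by role), with curdlan-treated cells in the left panel and untreated cells in the right. Points are fitted differences and bars 95% confidence intervals, and the single filled point, Npc2 in untreated cells (0.34), passed an adjusted p of 0.05. Ctsk lies farthest to the right in both panels (0.51 and 0.56) with the widest interval.

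Npc2, described above, was higher in knockout than in wild-type cells on each array of either treatment. The difference was 0.21 ± 0.07 with curdlan (SE, limma, adjusted p 0.208) and 0.34 ± 0.07 untreated (adjusted p 0.0313, 1.27-fold, and 0.0258 with the replicate number as a block). Averaged over both treatments it was 0.28 ± 0.05 (adjusted p 0.00648), a call lost only without wild-type culture 2 (0.0635). The untreated call held in 13 of 26 settings. It was lost with only the arrays compared (0.0828), without untreated knockout arrays 1 (0.0816), 2 (0.123) or 3 (0.0539), untreated wild-type arrays 2 (0.168) or 3 (0.081), curdlan-treated knockout array 1 (0.0507) or curdlan-treated wild-type array 3 (0.0536). Leaving out knockout cultures 1 (0.118), 2 (0.093) or 3 (0.0541) or wild-type cultures 2 (0.225) or 3 (0.13) also ended it.

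Atp6v1h encodes a regulatory subunit of the part of the pump that hydrolyses ATP. It had 10.49, 10.54 and 10.63 in curdlan-treated knockout cells, against 10.40, 10.38 and 10.39 in curdlan-treated wild-type cells. Untreated knockout cells gave 10.50, 10.47 and 10.56, against 10.36, 10.36 and 10.33 in untreated wild-type cells. All 6 knockout arrays lay above all 6 wild-type arrays, although the difference was small. It was 0.16 ± 0.04 over both treatments (SE, 1.12-fold, limma, adjusted p 0.0247), 0.16 ± 0.05 with curdlan (adjusted p 0.215) and 0.16 ± 0.05 untreated (adjusted p 0.201). The averaged call held in 13 of 25 settings. It was lost with a random culture block (0.0521), without untreated knockout arrays 1 (0.0512) or 3 (0.0595), curdlan-treated wild-type arrays 2 (0.0729) or 3 (0.0553) or untreated wild-type arrays 2 (0.0647) or 3 (0.0677), and without knockout cultures 1 (0.0522), 2 (0.0636) or 3 (0.0864) or wild-type cultures 2 (0.166) or 3 (0.132). The catalytic subunit gene Atp6v1a differed by 0.07 with curdlan and 0.11 untreated and did not pass.

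Ctsk, which encodes the collagen-degrading cathepsin K best known from osteoclasts, had the largest genotype differences of the 35 and did not pass. Its levels were 10.98, 10.70 and 10.71 in curdlan-treated knockout cells, against 10.61, 10.18 and 10.06 in curdlan-treated wild-type cells. Untreated knockout cells gave 10.93, 10.60 and 10.49, against 10.64, 9.91 and 9.78 in untreated wild-type cells. Replicate 1 was the highest array in every group, and untreated wild-type array 1 lay among the untreated knockout arrays, so those groups overlapped. The difference was 0.51 ± 0.21 with curdlan (SE, limma, adjusted p 0.371), 0.56 ± 0.21 untreated (adjusted p 0.323) and 0.54 ± 0.15 over both (adjusted p 0.0679). In untreated cells, where arrays of the same number deviated together across the genotypes, the replicate number as a block gave an adjusted p of 0.0117. It also passed untreated without untreated wild-type array 1 (0.0329) or wild-type culture 1 (0.0125). The 10 stroma and osteoclast markers summed to 8197 to 9943 with curdlan in knockout cells against 8197 to 9597 in wild-type cells, and untreated to 7220 to 9227 against 7141 to 8230. This sum is mostly Dcstamp and Ocstamp, with group means of 12.02 to 12.33 and 11.15 to 11.42. The collagen genes Col1a1, Col1a2 and Col3a1 had group means of 6.62 to 7.47, so the sum says little about stroma. The part of these markers in the Ctsk values was not tested.

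Gusb, Gla and Ctss were among the genes that did not pass between genotypes. Gusb differed by 0.19 ± 0.05 with curdlan and by 0.06 ± 0.05 untreated (SE, limma, adjusted p 0.161 and 0.85). Gla differed by 0.13 ± 0.06 with curdlan and by 0.19 ± 0.06 untreated (adjusted p 0.472 and 0.232). Ctss differed by 0.13 ± 0.05 and 0.11 ± 0.05 (adjusted p 0.298 and 0.389), and for Gla and Ctss the knockout arrays lay above the wild-type arrays in each treatment. Below 0 in both treatments were Gaa and Ctsc. Gaa differed by -0.09 and -0.13 (limma, adjusted p 0.84 and 0.836), with a residual SD of 0.153. Ctsc differed by -0.039 with curdlan and -0.003 untreated.

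The interaction, which subtracts the wild-type response to curdlan from the knockout response, asks whether the genotypes responded differently. By limma 0 of the 35 passed, beside 0% of all genes, and 0 of the 35 had an unadjusted p under 0.05, against 552 of all 19937 genes. Il2, the disrupted gene, had an interaction of -1.89 and did not pass either (limma, adjusted p 0.357). The 0 calls therefore do not show that the responses were alike. The estimates ran from -0.13 (Lamp2) to 0.21 (Neu1) with a median of 0.00. The interval lay within 1.25-fold for 29 of the 35, against 48.6% of all genes, and within 1.5-fold for 34. For Neu1 it ran from -0.03 to 0.45, and for Npc2, at -0.13, from -0.33 to 0.08.

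Other lysosomal enzyme genes, from lists drawn up around the 35, were followed under curdlan. Of 20 further glycosidases, sulfatases and lipid hydrolases, 4 fell in knockout cells and 5 in wild-type cells, and 0 rose, with medians of -0.09 and -0.13. The falls were 20% and 25% of the 20, beside 13.2% and 12.3% of all genes. Pla2g15, the lysosomal phospholipase A2, differed by -0.64 ± 0.10 and -0.63 ± 0.10 (SE, limma, adjusted p 0.00158 and 0.00157). Sgsh, a sulfatase of heparan sulfate, differed by -0.45 and -0.64 (adjusted p 0.0137 and 0.00216), the first lost with only the arrays compared (0.05), with quantile normalisation (0.0521) and without knockout culture 1 (0.0614) or 2 (0.0661). Galc, which degrades galactosylceramide, differed by -0.57 in each genotype (adjusted p 0.00708 and 0.00657), lost without knockout culture 1 (0.0675) and wild-type culture 1 (0.074). These falls were in the same direction as those of Manba, Man2b1 and Gusb. Of 11 further cathepsins and acid peptidases 1 fell in knockout cells and 2 in wild-type cells, led by the carboxypeptidase gene Prcp at -0.24 and -0.27 (adjusted p 0.00926 and 0.00493), the first lost without knockout culture 1 (0.0975) or 2 (0.0624). Those falls were 9.09% and 18.2% of the 11, beside 13.2% and 12.3% of all genes.

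Among inhibitors of lysosomal and related proteases, 8 were measured, of which 2 rose in each genotype and 0 fell. The rises were 25% of the 8, beside 9.29% of all genes in knockout cells and 7.27% in wild-type cells. Cst7 encodes cystatin F, an inhibitor that acts inside the endocytic compartment and restrains cathepsins C and H among others. It was 9.92, 10.58 and 9.61 in curdlan-treated knockout cells, against 8.42, 9.01 and 8.74 untreated. Wild-type cells gave 9.99, 9.56 and 9.94 with curdlan, against 8.66, 8.50 and 8.95 without. Each treated array was above each untreated one. Cst7 rose by 1.31 ± 0.23 in knockout cells (SE, limma, adjusted p 0.00292) and by 1.13 ± 0.23 in wild-type cells (adjusted p 0.00583, lost without wild-type culture 1 at 0.0684). Serpinb9, known as an inhibitor of granzyme B rather than of a cathepsin, rose by 1.55 ± 0.17 and 1.89 ± 0.17 (adjusted p 0.000163 and 3.15e-05).

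The wider set of lysosomal membrane proteins changed in both directions. Of 32 measured, 3 rose and 7 fell in knockout cells, and 4 rose and 7 fell in wild-type cells, with medians of -0.03 in each. The calls were 31.2% and 34.4% of the 32, beside 22.5% and 19.6% of all genes. Mcoln2, a cation channel related to the Mcoln1 channel, was 11.02, 10.90 and 10.68 in curdlan-treated knockout cells, against 10.20, 10.03 and 10.07 untreated. In wild-type cells it was 10.79, 10.57 and 10.66 with curdlan, against 10.04, 10.03 and 10.11 without. It rose by 0.76 ± 0.09 and 0.61 ± 0.09 (SE, limma, adjusted p 0.00021 and 0.000753), while Mcoln1 itself differed by 0.00 and -0.06 and did not pass. Tpcn1, a two-pore channel gene, differed by -0.78 ± 0.15 and -0.80 ± 0.15 (adjusted p 0.00412 and 0.00315, the first lost without knockout culture 1 at 0.0529). Slc36a1, a proton-coupled amino acid exporter, differed by -0.55 ± 0.10 and -0.62 ± 0.10 (adjusted p 0.00283 and 0.0012). Of 16 further pump subunits 0 passed in either genotype by limma (4 and 2 at an unadjusted p under 0.05, beside 7604 and 6290 of all 19937 genes), with Atp6v0a1 at -0.22 in knockout cells and Atp6v1d at 0.21 in wild-type cells as the largest.

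Genes that sort hydrolases, control the lysosomal programme or work beside it were examined the same way. Their lists had calls for 5.56% to 21.1% of genes in knockout cells, beside 22.5% of all genes. In wild-type cells the shares were 5.56% to 16%, beside 19.6% of all genes. Of 19 sorting genes 1 rose and 3 fell in knockout cells, and 2 rose and 1 fell in wild-type cells. Ap1b1, a subunit of the AP-1 clathrin adaptor, differed by -0.40 ± 0.06 and -0.47 ± 0.06 (SE, limma, adjusted p 0.00102 and 0.000309). Of 22 genes for MiT/TFE transcription factors and their control, 0 rose and 2 fell in knockout cells, and 1 rose and 2 fell in wild-type cells, with medians of -0.03 and -0.04. The falls in knockout cells were Lamtor4 and Rragb. Rragb lay near background, with group means of 4.58 to 4.78. Its call (limma, adjusted p 0.0485) was lost with only the arrays compared (0.104) and in other settings. Of 18 genes for late endosome fusion and positioning 1 fell in each genotype. Of 25 autophagy genes 1 rose and 3 fell in each genotype, and the cargo receptor gene Sqstm1 rose by 0.45 ± 0.07 and 0.55 ± 0.07 (adjusted p 0.000996 and 0.000228). Of 9 class II presentation genes 1 fell in each, H2-DMa, by 0.21 and 0.27, of which the first held in 18 of 26 settings and the second was lost without wild-type cultures 1 (0.0586) and 3 (0.065).

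**Figure D4:**
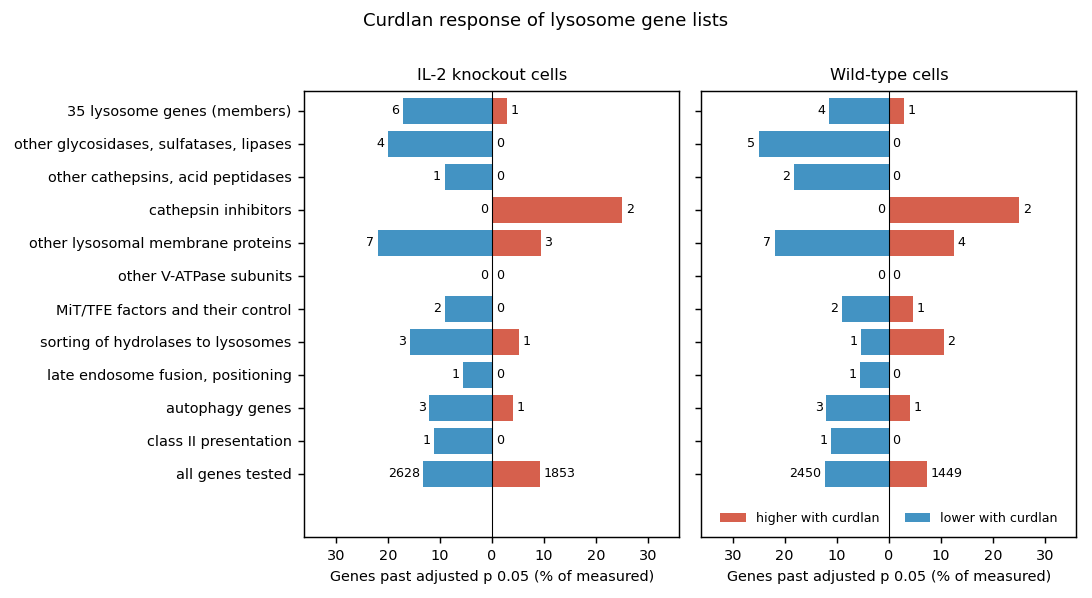
Percentage of the measured genes of each list that passed an adjusted p of 0.05 with curdlan, drawn to the left for genes that fell and to the right for genes that rose, in IL-2 knockout cells (left panel) and wild-type cells (right panel). Rows are the 35 lysosomal genes, 10 related lists and all genes tested, and numbers at the bars are gene counts. The 35 genes have 6 falls and 1 rise in knockout cells and 4 falls and 1 rise in wild-type cells, and in the row of cathepsin inhibitors the 2 rises in each genotype are Cst7 and Serpinb9, of which Serpinb9 is known as a granzyme B inhibitor.

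Between genotypes, averaged over both treatments, the 180 measured genes of the 10 lists held 13 calls higher and 4 lower in the knockout, beside 1.48% and 3.56% of all genes. They were 2 higher of 20 glycosidases, sulfatases and lipid hydrolases, 1 higher and 1 lower of 11 cathepsins and acid peptidases, 2 higher of 32 membrane proteins, 1 higher of 16 pump subunits, 4 higher and 1 lower of 22 MiT/TFE genes, 1 higher and 1 lower of 19 sorting genes, 2 higher of 18 fusion and positioning genes and 1 lower of 9 class II genes. The averaged p-values have the limit given above for arrays of 1 culture. Up to 3 genes of each list were followed over the alternative settings, and of these Igf2r and Mitf kept the averaged call in every setting. Igf2r encodes the large mannose 6-phosphate receptor, which carries newly made hydrolases to the lysosome. It was 11.31, 11.40 and 11.45 in curdlan-treated knockout cells, against 10.98, 10.95 and 10.99 in curdlan-treated wild-type cells. Untreated knockout cells gave 11.52, 11.61 and 11.46, against 11.30, 11.13 and 11.10 in untreated wild-type cells. In each treatment every knockout array was above every wild-type array. The difference was 0.38 ± 0.05 over both treatments (SE, limma, adjusted p 0.00132). Mitf encodes a transcription factor of the family that includes TFEB. It was 11.19, 11.14 and 11.19 in curdlan-treated knockout cells, against 10.90, 10.84 and 11.02 in curdlan-treated wild-type cells. Untreated knockout cells gave 11.21, 11.15 and 11.08, against 10.81, 10.74 and 10.90 in untreated wild-type cells, again without overlap. It differed by 0.29 ± 0.04 over both treatments (adjusted p 0.00383). Those averaged calls were kept in 25 settings, while the calls in single treatments held in fewer, for Igf2r in 16 of 26 with curdlan and 17 untreated, and for Mitf in 17 untreated.

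Averaged over both treatments, further single genes of these lists passed between genotypes. The sulfatase gene Galns was higher in knockout cells by 0.28 (limma, adjusted p 0.0106), lost without knockout culture 1 (0.069) or wild-type cultures 2 (0.102) or 3 (0.0603). The pump subunit gene Atp6v1e1 was higher by 0.18 (adjusted p 0.0126), lost without knockout culture 3 (0.0533) or wild-type cultures 2 (0.0995) or 3 (0.0721). Sorl1, a sorting receptor gene, was lower by 0.38 (adjusted p 0.0154), lost without wild-type cultures 1 (0.0506) or 3 (0.0933). H2-Oa, a subunit of the class II inhibitor H2-O, was lower by 0.83 (adjusted p 0.00816), lost without wild-type culture 2 (0.0656). Lamtor2, a subunit of the Ragulator complex that anchors mTORC1 signalling at the lysosome, was higher by 0.23 (adjusted p 0.0139), lost without knockout cultures 1 (0.0728) or 3 (0.0585) or wild-type cultures 2 (0.0771) or 3 (0.082). The acid peptidase gene Napsa was lower in knockout cells by 0.36 (adjusted p 0.0281) and held in 18 of 25 settings. Of the other genes followed, Slc36a1, Clcn7, Pld3, Ctso, Tfec, Plekhm1 and Vamp8 were higher in the knockout and held in fewer than 14 of 25 settings each.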

How the data were processed

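The deposited values are log2 expression levels of 34760 probe sets on 12 arrays, made by the authors with RMA, per the submitters' processing notes. RMA corrects background, quantile-normalises and summarises probes. Differences near saturation or near background may be compressed in such values, and this was not tested. Software version, genome build and which arrays were normalised jointly were not given in the sources used here. Probe sets were named through the platform's annotation table. Those with 1 symbol (21640) were kept, and 1321 with several and 11799 unnamed ones were left out. Where a gene had more than 1 probe set (954 genes), that of the highest mean was used, which gave 19937 genes, with no further normalisation or filter. Array medians were 6.59 to 6.64 and correlations between arrays 0.981 to 0.997. The number of arrays limits the precision.

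Group means of the 4 groups were fitted with limma 3.58.1 in R 4.3.3 to all 12 arrays (8 residual degrees of freedom), and 6 contrasts were tested two-sided, with Benjamini-Hochberg adjustment over all genes within a contrast. SE is that of the fit. The scripts were tested on simulated data. The 35 genes and the related lists were chosen with earlier results of these data known. Described on every array are genes past the threshold between genotypes, the 4 largest rises and falls past it with curdlan whose arrays do not overlap, and 1 gene of each remaining role class. Of each list up to 3 genes per contrast were picked, and of these Cst7, Mcoln2, Igf2r and Mitf are given on every array. A few further values (Ctsh, Neu1 and Laptm5 among them) were added after they were seen. Alternatives were replicate blocks, centring, quantile normalisation, a filter on dim genes, the mean of a gene's probe sets, the arrays compared alone, trended robust moderation, and leaving out each array or culture.

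Replicate numbers come from the titles. After group means were removed, same-numbered arrays of a genotype correlated at 0.486 to 0.604 in knockout and 0.368 to 0.450 in wild-type cells (other pairs -0.479 to 0.063), and were taken as pairs. Across genotypes they correlated at 0.105 to 0.254 untreated, taken as pairs, and at -0.134 to 0.328 with curdlan, not taken as pairs. Promoter sequences are from RefSeq, GRCm38.p6, and promoters of Ctsb, Npc1, Atp6v1h, Ctsh and Asah1 were not analysed here.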

Additional observations from a re-analysis of the deposited data

How the results depend on the processing

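Over 26 alternative settings (25 for the average over treatments) 0 differences that passed in the main fit or in that setting changed sign. Sign changes of differences that passed in neither were not counted. Of 15 calls of the 35 genes 5 held in every setting (Manba in both genotypes, and Man2b1, Gusb and Npc2 in wild-type cells), and of 195 pairs of gene and contrast not called, 19 were called in some setting. Of 62 calls of listed genes followed, 20 held in every setting. The cause of each change was not tested. With curdlan in knockout cells the 35 genes gave 2 higher with a replicate block (paired cultures) and with a random replicate block, 0 higher and 3 lower with only the arrays compared, and 0 to 1 higher and 1 to 9 lower when 1 array or culture was left out. In wild-type cells they gave 8 lower with the random block, 7 with trended robust moderation, and 1 higher and 3 to 5 lower in the leave-one-out settings. Knockout against wild type untreated gave 2 higher with the replicate block, 0 with only the arrays compared, and 0 to 3 in the leave-one-out settings. With curdlan it gave 1 with the replicate block (Ctsk, adjusted p 0.0265 by limma) and 0 to 1 in the leave-one-out settings. Same-numbered arrays with curdlan were not taken as pairs across the genotypes. This limits the replicate-block results between genotypes with curdlan and for the average, here and over all genes. Averaged over treatments it gave 1 with the random block, 6 with arrays centred on their medians, 5 with trended robust moderation, 0 to 7 higher and 0 to 1 lower in the leave-one-out settings, and 3 with the replicate block, which added Ctsk (adjusted p 0.00119). The replicate block changed no other call of the 35 genes than those of Neu1, Ctsh and Ctsk.

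Over all genes, curdlan in knockout cells gave 2873 higher with the replicate block, 3080 with the random block and 1176 with only the arrays compared, and 579 to 2464 higher and 500 to 2952 lower in the leave-one-out settings. In wild-type cells these settings gave 787 to 1506 higher and 979 to 2505 lower. Untreated knockout against wild type gave 145 higher and 554 lower with the replicate block, 10 and 60 with only the arrays compared, 95 higher with centred arrays, and 2 to 155 higher and 7 to 453 lower in the leave-one-out settings. With curdlan it gave 94 and 356 with the replicate block, 2 and 13 with only the arrays compared, 33 higher with trended robust moderation, and 3 to 66 higher and 13 to 233 lower. The average gave 562 higher with the replicate block, 149 with the random block, 552 with centred arrays, 464 with quantile normalisation, and 39 to 492 higher and 286 to 939 lower. The interaction gave 0 to 1 higher and 0 to 2 lower. Centring moved the split of the curdlan calls from 1853 higher and 2628 lower to 1412 and 3120 in knockout cells, from 296 and 709 to 552 and 552 for the average over treatments (464 and 668 with quantile normalisation), and from 46 and 237 to 95 and 174 untreated. All 35 genes lay well above background, and the number of arrays limits the precision.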
